A study of Mus musculus with 80 samples.

Results

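The genomic DNA libraries of a barcoded reporter experiment are described here, as a record of how many copies of each reporter, and so of each cell clone carrying it, were present in every culture. They were chosen as all libraries whose barcodes were counted from genomic DNA, 32 of the 80 samples of the series, and they hold all 10903 reporters of the deposited table. The cells were EBRTcH3 mouse embryonic stem cells, in which the ROSA26 promoter drives a tetracycline-controlled transactivator, carrying piggyBac tet-Off reporters, each with its own barcode. Cells with low eGFP were sorted, grown for 5 days and isolated as 4 small pools (A to D), which were grown for 7 days. Each pool was then divided into 2 cultures, numbered 1 and 2, that grew apart for 7 more days, and each culture was kept without doxycycline (dox 0) or given dox at 0.01 ng/ml, 0.1 ng/ml or 100 ng/ml during the last 72 h. Every library therefore shares its line, transactivator, reporter and eGFP sort, and groups differ in pool, culture and dose. The labels name a tet-Off construct in the titles and an mPGK promoter in the growth and treatment protocols, and the titles were followed. Only barcodes were counted, so no marker gene of the cells could be checked.

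In the TRIP assay (many reporters integrated in parallel), a cell pool is a mixture of clones, and a barcode counted in genomic DNA measures how large a share of the mixture its clone holds. RNA counts of a barcode are divided by this share to give an expression level per reporter copy, so error in the DNA count passes into the level. When a mixture is divided and grown, clones that divide faster or are sampled unevenly change their share for good, whereas uneven sampling of template or amplification in a single library does not carry over to the next library of the same culture. In a tet-Off system dox releases the transactivator from the reporter and lowers its RNA, while the integrated DNA copy stays.

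The barcodes below, written 5′ to 3′ as deposited and all in lower case, identify the reporters on which the account turns. The first 5 belong to very large clones with at most 8 RNA counts in either dox 0 library, and the last 2 had low p-values for a difference between cultures.
Pool B, chromosome 11 at 29350554, plus strand: tacaaaggaaccgtca
Pool B, chromosome 2 at 137118207, minus strand: tattcgggttttataa
Pool C, chromosome 17 at 10643091, minus strand: agctaactgaccacac
Pool A, chromosome 7 at 144770516, minus strand: tgagggattgatggac
Pool D, chromosome 7 at 30200390, minus strand: ttaccgcagaactcta
Pool D, chromosome 2 at 109122080, minus strand: aataggtgaactggac
Pool B, chromosome 11 at 70035902, plus strand: agcaaacaatatcttt
Positions, in mm9, were taken from the deposited table, and whether they lie in genes was not analysed here. Barcodes had 16 bases in 10705 reporters, 15 in 81 and 17 in 117.

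Pool A contained 2241 reporters, pool B 2278, pool C 3176 and pool D 3208. Totals of the 32 libraries ranged from 928128 to 1571280 counts, and the median reporter of a library from 226 to 523. The lowest count in any library was 5, and 118 reporters fell under 10 in at least 1 library. The labels call the paired cultures technical replicates. In the test between cultures, the 4 libraries of a culture serve as replicates. Its p-values therefore measure the spread between libraries within the cultures of a single pool, not between cultures. In the tests between doses, p-values measure the spread between the libraries of a dose, which come from both cultures of a single pool. Because no molecular identifiers marked the PCR reads, counting errors given below cover read counting only.

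Clone sizes were broad but no reporter took over a pool. In CPM (a reporter's share of its library's counts, scaled to 1000000 and averaged over 8 libraries), the median reporter stood at 331, 343, 243 and 256 in pools A to D. The reporter at the 95th percentile was 11.3 ± 1.46 times as abundant as the one at the 5th (SD, n = 4 pools), and the quartiles were 2.78 ± 0.222-fold apart. On the log2 scale, reporters had an SD of 1.12 ± 0.0579 for the mean of 8 libraries (SD, n = 4 pools). In single libraries it was 1.25 ± 0.0370, and the part shared by libraries, taken from their covariance, was 1.10 ± 0.0615, or 76.8% ± 4.35 of the variance of a library. Among the reporters in the deposited table, the distribution was close to symmetric on the log2 scale, with a skewness of −0.186 to 0.0319. The table holds no DNA count under 5, so any clones below that are not part of these sizes.

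The largest 1% of reporters held 5.18% ± 0.628 of the DNA counts, the largest 10% held 28.4% ± 1.45 and the smallest 10% held 2.19% ± 0.207 (SD, n = 4 pools). The largest 23.6% ± 1.32 of reporters made up the first 50% of the counts. The inverse Simpson index, the number of equally abundant reporters that would give the same concentration, was 1273, 1192, 1883 and 2073 in pools A to D. This is 58.3% ± 5.13 of the reporters present.

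The most abundant reporter of all was the pool B reporter on chromosome 11 at 29350554. Its DNA counts were 11969, 14295, 15869 and 11334 in culture 1, in the order of dose, and 14021, 14884, 14705 and 14435 in culture 2. It held 0.991% of the pool's DNA counts, 28.9 times the median reporter, with a coefficient of variation over the 8 libraries of 7.10%. The cultures overlapped, and the log2 difference of culture 2 from culture 1 was −0.01 ± 0.07 (SE, edgeR). In RNA it had 0 counts in both dox 0 libraries.

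The pool B reporter on chromosome 2 at 137118207 followed, with DNA counts of 10944, 13120, 11433 and 8672 in culture 1 and 10880, 12130, 10829 and 11351 in culture 2. That is 23.2 times the median of the pool, beside 2 and 0 RNA counts at dox 0. The pool C reporter on chromosome 17 at 10643091 had 5791, 5312, 5638 and 5963 DNA counts in culture 1 and 5764, 5550, 6351 and 4960 in culture 2, beside 1 RNA count in each dox 0 library. Both reporters thus combined a very large DNA share with almost no RNA at dox 0, as the chromosome 11 reporter did. With dox, single RNA libraries held more raw counts, which were not scaled between doses. The chromosome 11 reporter had 99 counts at 100 ng/ml in culture 1 and 64 at 0.1 ng/ml in culture 2. The chromosome 2 reporter had 47 at 0.1 ng/ml in culture 1.

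In pool A, the reporters on chromosome 12 at 71215025 and on chromosome 7 at 144770516 had nearly the same DNA abundance, 3960.1 and 3950.1 CPM. Their RNA differed widely: the chromosome 12 reporter had 4160 and 4769 counts at dox 0, and the chromosome 7 reporter 1 and 0. In pool D, the reporter on chromosome 17 at 83877708 stood at 2198 CPM with 3552 and 3700 RNA counts at dox 0, and that on chromosome 7 at 30200390 at 1915 CPM with 8 and 0. The latter had higher raw RNA counts with dox, 55 and 113 at 0.1 ng/ml and 142 and 450 at 100 ng/ml. Meanwhile the pool's median reporter fell from 218 and 224 RNA counts at dox 0 to 0 in both libraries at 100 ng/ml. Library totals there were still 1293924 and 1257909, so raw counts of different doses are not on the same scale. Whether RNA per copy rose was not tested. The eighth, a pool C reporter on chromosome 18, stood at 4535 CPM with 6187 and 7065 RNA counts. Across these 8 reporters, the 2 most abundant of each pool, the coefficient of variation of CPM over the 8 libraries ran from 6.09% to 17.2%.

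Of these 8 reporters, 5 had at most 10 RNA counts in each dox 0 library, a limit chosen after the values were seen. Among all 10903 reporters 2.62% had so few (286 reporters), and among the 109 that make up the top 1% by DNA 7.34% had (8 reporters). From the least to the most abundant quintile the share was 6.37%, 3.12%, 1.74%, 0.964% and 0.918% (139, 68, 38, 21 and 20 reporters). It was thus lower in larger clones by quintile, and higher in the top 1% than in the quintile to which that 1% belongs. However, the 8 few-RNA reporters of the top 1% include the 5 after whose values the limit was chosen. The higher share in the top 1% is therefore not independent of that choice. A reporter with a small clone also has few RNA counts at a given level per copy, so the share in the lowest quintile reflects DNA as well as level. In pools A to D the few-RNA reporters of the top 1% numbered 3 of 22, 3 of 23, 1 of 32 and 1 of 32. These are 13.6%, 13.0%, 3.12% and 3.12%, against 1.92%, 1.76%, 3.62% and 2.74% of all reporters of the pool, so the higher share rests on pools A and B.

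The main comparison asked whether clone shares drifted apart while the cultures grew separately. No reporter passed the test for a difference between cultures. The edgeR quasi-likelihood test with a dose term, adjusted by Benjamini-Hochberg within pools, called 0 of 10903 reporters, and the percentage called was 0%. An unadjusted p below 0.05 was found for 510, or 4.68%, with 4.55%, 4.57%, 4.94% and 4.58% in pools A to D, and by DESeq2 for 758, or 6.95%. The DESeq2 Wald test called 8 (0.0734%), 1 higher and 7 lower in culture 2. By pool it called 1 reporter in A (0.0446%), 3 in B (0.132%), 1 in C (0.0315%) and 3 in D (0.0935%). The typical spread that edgeR fitted between libraries, its common biological coefficient of variation, was 37.5%, 35.3%, 38.9% and 40.6% in pools A to D.

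The reporters with the smallest p in each pool, chosen after their values were seen, show what the largest candidate differences look like. The pool D reporter on chromosome 2 at 109122080 had DNA counts of 886, 927, 903 and 580 in culture 1 and 348, 284, 406 and 397 in culture 2. Its libraries do not overlap between cultures, and the log2 difference was −1.22 ± 0.25 (SE, edgeR adjusted p = 0.0628). The edgeR adjusted p was 0.0446 with a minimum of 10 counts, 0.0193 without the dose term and 0.0160 without the dox 100 libraries, and DESeq2 gave 0.00371. Its raw RNA counts at dox 0 were 986 in culture 1 and 1001 in culture 2, and 961 and 652 at dox 0.01. The RNA libraries at dox 0.01 differed in depth, with totals of 1585468 in culture 1 and 1103525 in culture 2. The lower raw count in culture 2 therefore does not show less RNA there.

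In pool B, the chromosome 11 reporter at 70035902 gave DNA counts of 701, 993, 598 and 533 in culture 1 and 458, 329, 255 and 304 in culture 2. The log2 difference was −1.21 ± 0.29 (SE, edgeR adjusted p = 0.257; DESeq2 0.00772). Its RNA counts lay close together: cultures 1 and 2 had 5584 and 5635 without dox and 4845 and 5059 at 0.01 ng/ml. In pool C the reporter on chromosome 3 at 10916624 stood at −1.08 ± 0.24 (SE, edgeR adjusted p = 0.256, and 0.000881 without the dox 100 libraries), with 0 RNA counts in all 8 RNA libraries. In pool A the reporter on chromosome 6 at 51615870 stood at −1.76 ± 0.47 (SE, edgeR adjusted p = 0.948), with DNA counts of 361, 396, 442 and 483 in culture 1 and 131, 135, 72 and 224 in culture 2. Its RNA counts at dox 0 were 90 and 103.

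Pairs of libraries differed by similar amounts whether or not they came from the same culture. Over reporters, the SD of the log2 difference was 0.847 ± 0.0587 for libraries of the same culture at different doses. It was 0.849 ± 0.0569 for the other culture at the same dose and 0.850 ± 0.0604 for the other culture at another dose (SD, n = 4 pools). Pearson r over reporters was 0.769, 0.768 and 0.767 in the same order, and 81.3%, 81.2% and 81.1% of reporters lay within 2-fold. Changing culture added 0.00289 ± 0.00638 to the SD (exact sign-flip permutation test over the 4 pools, two-sided p = 0.625, where the smallest possible is 0.13). The gain in likeness from sharing a culture was thus smaller than the spread between pools.

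The part of the difference that lasts was taken from the covariance, over reporters, between the culture 2 to culture 1 log2 ratio at a dose and the same ratio at another dose. That covariance divided by 2 estimates the variance that 1 culture adds to a reporter's share, and what remains of the variance at a single dose is called library noise here. Each DNA library came from its own treated dish, so the remainder also holds any difference between dishes. In the DNA counts alone such a difference cannot be told apart from library preparation. The lasting variance was 0.00209, −0.000479, 0.0106 and −0.00218 in pools A to D, with a mean of 0.00250 ± 0.00566 (SD, n = 4 pools; exact sign-flip permutation p = 0.75, two-sided). A negative estimate can occur where the true variance is near 0. The square root of the mean, 0.050 on the log2 scale, compares with a library noise SD of 0.598 ± 0.0396. The lasting part was 0.664% ± 1.46 of the variance of a single library around its reporter's share.

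Pool C stood highest. All 6 of its pairs of doses had a covariance above 0, against 4 of 6 in A, 3 of 6 in B and 3 of 6 in D (16 of 24 in all). Its correlations between doses ran from 0.000989 to 0.0466, and its culture mean square was 1.11 times the residual one, against 1.02, 0.994 and 0.979 in A, B and D. The estimate over the 4 pools rested on single doses: it was 0.0770 without dox 0, and without dox 100 the mean variance was −0.00129 and the SD was set to 0. The reporters on the same side of 0 at all 4 doses made up 12.9% ± 0.546 (SD, n = 4 pools), where independent signs would give 12.5%. Averaged over the 4 doses, 95% of reporters had a culture difference between −0.886 and 0.888 on the log2 scale, against −1.76 and 1.74 at a single dose.

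More drift in small clones than in large ones was not detected. The lasting variance of the least abundant quintile minus that of the most abundant quintile was 0.00250, −0.00312, 0.0240 and −0.0179 in pools A to D (mean 0.00137 ± 0.0174, SD, n = 4; exact sign-flip permutation p = 0.875, two-sided). The sign of the mean was not stable: it was −0.0137 without the dox 100 libraries and −0.000969 with at least 10 counts in each library.

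Library noise, in contrast, depended steeply on clone size. From the least to the most abundant quintile of reporters, the noise SD of a library was 0.897, 0.665, 0.513, 0.421 and 0.318 on the log2 scale (means of 4 pools, with SDs of 0.0268 to 0.0537). The share of values within 2-fold between cultures at the same dose rose from 59.6% to 96.7%. Read counting alone would give an SD of 0.162 in the lowest quintile and 0.0497 in the highest, so the observed noise was 5.62 ± 0.738 and 6.52 ± 0.885 times as large (SD, n = 4 pools).

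Expressed as the Poisson count that would give the same noise, by a first-order approximation of the log2 variance, the effective count was 2.61, 4.79, 8.05, 12 and 21.0 in the 5 quintiles. The approximation is rough at such low counts, most of all in the least abundant quintiles. One such effective count stood for 45.8, 47.8, 44.0, 44.0 and 45.0 reads, a nearly constant ratio over a range of median abundance from 107 to 753 CPM. It varied more between pools than between quintiles, from 32.5 to 57.7 reads in the lowest quintile. The 8 libraries that give the noise also sort the reporters into quintiles.

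Single aberrant libraries were mostly low. Of 87224 values, 1084 (1.24%) were at least 4-fold below the median of the same reporter in the other 7 libraries, and 87 (0.0997%) at least 4-fold above it. The low values were spread over all 32 libraries, with 15 to 55 in each.

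Dox was not found to change clone shares within 72 h. For each of the 3 doses against dox 0, the edgeR quasi-likelihood test with Benjamini-Hochberg adjustment called 0 of 10903 reporters each, and the percentage called was 0% for each dose. An unadjusted p below 0.05 was found for 479 reporters at 0.01 ng/ml, 429 at 0.1 ng/ml and 481 at 100 ng/ml, and the DESeq2 Wald test called 1 at each dose (0.00917%). The dose mean square was 1.00 ± 0.0396 times the residual one (SD, n = 4 pools). The spread of single libraries was 1.25 at dox 0 and 1.25 at dox 100 on the log2 scale, and the share of the top 1% was 5.40% and 5.29%. Neither had a trend with dose (exact permutation of doses within pools, two-sided p = 0.468 and 0.151, where the smallest possible is 6.03e-06).

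The smallest adjusted p at 0.01 ng/ml belonged to the pool A reporter on chromosome 19 at 45467609, whose DNA counts were 639, 1379, 1032 and 798 in culture 1 and 120, 1052, 1298 and 995 in culture 2. Its log2 change was 1.64 ± 0.43 (SE, edgeR adjusted p = 0.529), and the culture 2 library at dox 0 is the lowest of its 8. Without replicate 1 of both doses the change was 3.12 (edgeR adjusted p = 0.000104). Each dose then has a single library, assumed to vary like those of the other doses, from which the spread is taken. The pool A reporters on chromosome 7 at 18748112 and chromosome 15 at 11557082 followed at −0.89 ± 0.25 and 0.95 ± 0.26 (SE, edgeR adjusted p = 0.529 for both).

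At 0.1 ng/ml the leading reporters were the pool A reporters on chromosome 7 at 3347931 and chromosome 19 at 45467609, with log2 changes of 2.26 ± 0.57 and 1.58 ± 0.43 (SE, edgeR adjusted p = 0.550 and 0.630). The pool D reporter on chromosome 4 at 116727785 came next at 1.84 ± 0.51 (SE, edgeR adjusted p = 0.792). Without replicate 1, and so again with a single library a dose, the chromosome 19 reporter moved to 3.37 (edgeR adjusted p = 0.000867). At 100 ng/ml they were 3 pool C reporters, at 94456880 on chromosome 13, 71753499 on chromosome 12 and 120190150 on chromosome 4. Their changes were −1.10 ± 0.28, −3.50 ± 0.91 and 1.63 ± 0.44 (SE, edgeR adjusted p = 0.563, 0.563 and 0.635). The chromosome 12 reporter had few reads, 164, 197, 117 and 14 DNA counts in culture 1 and 175, 80, 25 and 16 in culture 2.

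The 3 reporters that DESeq2 called for a dose, named after their values were seen, were each low in both cultures at that dose. In pool C, on chromosome 19 at 41278895, DNA counts were 324, 45, 180 and 152 in culture 1 and 351, 80, 267 and 276 in culture 2, in the order of dose. The log2 change at 0.01 ng/ml was −2.46 by DESeq2 (adjusted p = 0.0141, 0.0315% of the pool's reporters called) and −2.45 ± 0.62 by edgeR (SE, adjusted p = 0.730). In pool B, on chromosome 4 at 131311142, the counts were 185, 128, 16 and 157 in culture 1 and 192, 263, 24 and 136 in culture 2. The change at 0.1 ng/ml was −3.28 by DESeq2 (adjusted p = 0.0197, 0.0439% called) and −3.27 ± 0.84 by edgeR (SE, adjusted p = 0.998). In pool D, on chromosome 3 at 116161971, the counts were 263, 210, 296 and 86 in culture 1 and 495, 178, 358 and 60 in culture 2. At 100 ng/ml this was −2.34 by DESeq2 (adjusted p = 0.0206, 0.0312% called) and −2.33 ± 0.58 by edgeR (SE, adjusted p = 0.754). For the pool C and pool B reporters the low dose was an intermediate one, and their counts at 100 ng/ml were again above it in both cultures.

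The RNA libraries, prepared from the same cultures, give a second look at clone shares, since a clone that grew would add RNA in proportion. RNA also depends on the level per copy, and whether that differed between cultures was not tested. At dox 0 the log2 RNA counts of the cultures had an r over reporters of 0.981 ± 0.00516, against 0.761 ± 0.0458 for the DNA counts (SD, n = 4 pools). The SD of the log2 difference between cultures was 0.436 ± 0.0513 for RNA and 0.862 ± 0.0685 for DNA. The quintile of reporters with the most RNA was chosen on these same dox 0 RNA libraries. In it this SD was 0.157 ± 0.0174 for RNA and 0.655 ± 0.0750 for DNA, and 100% of its reporters lay within 2-fold in RNA in every pool. RNA thus agreed between cultures far more closely than DNA, which is used to normalise it.

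The lasting variance between cultures from RNA at dox 0 and 0.01 was 0.00320 ± 0.00349 over all reporters. In the quintile with the most RNA it was 0.00361 ± 0.00140, above 0 in all 4 pools and equal to a mean SD of 0.0593 ± 0.0111 on the log2 scale (SD, n = 4 pools). The culture difference in RNA at dox 0 followed that in DNA, averaged over the other 3 doses, with a slope of 0.0496, 0.0449, 0.0184 and 0.0202 in pools A to D. The mean slope was 0.0333 ± 0.0163 (SD, n = 4; exact sign-flip permutation p = 0.13, two-sided, the smallest possible). The DNA differences on which the slope is taken hold library noise as well as any lasting difference. In DNA the noise variance of a library was 0.359, against a lasting variance of 0.00250. Noise of this size pulls the slope far below 1 even where RNA moves fully with clone shares. The slope therefore cannot tell how fully RNA followed them. For RNA and DNA of the same dose, r of the culture differences over reporters was 0.00935 ± 0.0107 (SD, n = 4 pools). For RNA and DNA of different doses it was 0.0109 ± 0.00565.

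Reporter levels were then compared with single and with averaged DNA libraries. At dox 0, r between cultures over reporters was 0.981 for RNA alone, 0.896 ± 0.0181 for RNA over DNA of the same dose and culture, and 0.957 ± 0.00959 for RNA over the mean DNA of the culture's 4 libraries (SD, n = 4 pools). Averaging the DNA raised r by 0.0605 ± 0.00866, in all 4 pools (exact sign-flip permutation p = 0.13, two-sided, the smallest possible). The SD of the difference in level between cultures fell from 0.957 to 0.598 on the log2 scale, while the SD of the level between reporters stayed near 2 (2.05 and 2.02).

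Abundance was almost unrelated to the reporter's own level. To avoid shared error, DNA abundance in 1 culture was set against the RNA/DNA level at dox 0 of the other. Spearman's rank correlation over reporters was −0.0389, −0.0441, −0.0148 and −0.0615 in pools A to D, a mean of −0.0398 ± 0.0193 (SD, n = 4 pools, 2241 to 3208 reporters each). With DNA and level from the same culture it was −0.0711, since a low DNA count then raises the level. Median log2 abundance by quintile of level, from lowest to highest, was 0.0467, 0.139, 0.0782, 0.135 and −0.129. Unlike the rank correlation, the quintiles were not crossed between cultures. The level was averaged over both cultures, and its dox 0 DNA libraries are also part of the abundance. Shared error of the DNA counts therefore enters these medians, and lowers the abundance of the highest quintile. The quintile with the highest level was below the other quintiles in the mean and lay between −0.158 and −0.0979 in the 4 pools.

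Abundance was only weakly related to local reporter density. A reporter had a median of 6.00 others within 500 kb on either side, counted over all pools, and at most 28. The Spearman rank correlation of abundance with that number was 0.0391, 0.0476, 0.00584 and 0.0205 in pools A to D (mean 0.0282 ± 0.0188, SD, n = 4 pools). Median log2 abundance was −0.0704 ± 0.209 for the 336 reporters with none and 0.113 ± 0.0973 for the 3521 with 8 or more (SD, n = 4 pools), so the pools overlap. Pairs less than 1 kb apart in the same pool had an r of 0.171 over 67 pairs, and such pairs in different pools 0.0291 over 209 pairs. Pairs of the same pool could lie in 1 clone, and this was not tested. From 1 to 10 kb the values were 0.0488 over 313 pairs and −0.0285 over 892.

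Most autosomes differed from the others in opposite directions in different pools. The median log2 abundance of an autosome minus that of the other reporters, averaged over pools, ran from −0.123 for chromosome 18 to 0.109 for chromosome 19. Single pools reached −0.541 (chromosome 18 in A, with 0.241 in C), 0.326 (chromosome 8 in B) and 0.293 (chromosome 9 in A). The sign was the same in all 4 pools for 4 of 19 autosomes (2, 3 and 7 below, 19 above). Independent signs would give 12.5% of autosomes, so some are expected by chance. Reporters on X were less abundant than those on autosomes in each pool. Their medians were 244, 309, 202 and 233 CPM against 333, 345, 243 and 257 CPM on autosomes in pools A to D. Medians of the mean log2 abundance, a different summary from the CPM medians, differed by −0.534, −0.297, −0.284 and −0.162, a mean of −0.319 ± 0.156 (SD, n = 4 pools; 44, 45, 52 and 64 reporters on X). Taken in single libraries the difference was below 0 in each of the 8 of every pool. These libraries measure the same X reporters, so their common sign is not separate support. The single-library difference ran from −0.700 to −0.182 in A and from −0.270 to −0.000239 in D, on either side of the value from all 8 libraries. On average it was closer to 0 than that value, with means of −0.186 ± 0.138 in culture 1 and −0.225 ± 0.116 in culture 2 (SD, n = 4 pools). The difference over all 8 libraries had the same sign in the 4 pools (exact sign-flip permutation p = 0.13, two-sided, the smallest possible). Taken from means in place of medians it was −0.179. The 6 reporters on Y lay in 3 pools and had 158 to 465 CPM.

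The barcode itself carried little of the abundance. A set of 395 barcodes occurred in more than 1 pool, in 805 reporters, and 0 of the 425 pairs lay within 1 kb of each other, so these were separate integrations with the same barcode. Abundance in the 2 pools of a pair had an r of 0.0639 and the level at dox 0 an r of 0.0279 over the 425 pairs. No barcode was repeated within a pool. By the labels, pools A and C carry the same index sequence at each dose and replicate, as do B and D. They shared 69 barcode pairs (A and C) and 72 (B and D), against 69 between A and D, 74 between B and C, 42 between the smaller pools A and B and 99 between the larger pools C and D. The Spearman rank correlation of abundance with the GC content of the barcode was 0.0222 ± 0.0323 (SD, n = 4 pools).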

How the data were processed

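Barcodes amplified from 100 ng of genomic DNA were sequenced, and the deposited table holds raw read counts per reporter, library and pool, not normalized, per the file headers. Bowtie2 2.0 and mm9 are named in the submitters' processing notes, their role not given; barcode calling and filtering are not given in the sources used here, and 0 columns of sample values were left unused. Counts were tested per pool with edgeR 4.0.16 in R 4.3.3 (quasi-likelihood, TMM, no filter, Benjamini-Hochberg at 0.05), with DESeq2 1.42.0 as an alternative; an SE is the log2 change divided by the root of F. The fit was checked on simulated counts. Other values used log2(count + 1) centred per library (numpy 2.4.6, scipy 1.17.1 and pandas 2.3.3 in Python 3.11.15). Drift by clone size was compared on the variance scale, because estimates can be negative. Replicate numbers mark cultures and so pair doses by the labels; culture differences at different doses correlated at −0.0562 to 0.0466 over reporters. RNA libraries served as a second readout. Named reporters are the 2 most abundant per pool, culture calls (0, so the smallest p per pool was added) and the 3 smallest adjusted p per dose. Members and lists were chosen with earlier results of these data known.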

Additional observations from a re-analysis of the deposited data

Results flagged for a closer look

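Among 63 groups of 4 values checked for a single distant value (4 pools, or the 4 libraries of a culture for a named reporter, each count scaled by its library total), 2 were set apart, where chance alone flags about 1 group in 20. In pool D, the chromosome 7 reporter at 30200390 had 2886 DNA counts in culture 1 at dox 0, the highest of its 4 libraries, which held 1830, 1833 and 1867 at the other doses. In pool A, the chromosome 7 reporter at 18748112 had 1440 DNA counts in culture 1 at 0.01 ng/ml, the lowest of its 4 libraries, beside 2424, 2432 and 2053, and culture 2 had 1292 at the same dose.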

How the results depend on the processing

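For the 9 comparisons, 63 of 77 alternative values stayed within the SD over pools of the reported one or, for counts, within 1.5 times. Calls between cultures were 8 with DESeq2, 1 with at least 10 counts in each library, 1 without the dose term and 0 to 2 when a dose was left out (2 without dox 100). With DESeq2, each of the 3 doses gave 1 call. Leaving out a replicate gave 5 to 6 calls at 0.01, 0 to 3 at 0.1 and 1 to 1 at 100. There each dose compared is a single library, assumed to vary like the doses left whole, which give the spread; the cause was not tested. With the replicate block, which pairs the doses of a culture, calls stayed at 0 for each dose. The lasting SD was 0 to 0.0770 over doses left out, the small minus large difference −0.0137 to 0.00834, the clone size SD 1.14 without either replicate, and the X difference −0.277 to −0.271. The clone size SD was 1.01 among reporters with a mean of at least 100 counts, which drops small clones, and the correlation with level −0.0711 within a culture. Adjustment over all pools and the RNA estimate of the lasting SD (0.0566) were added after seeing the data. Of 227 alternative values of named reporters, 214 kept their side of the threshold and 13 crossed it, all to a lower adjusted p. With 4 pools no exact sign-flip test over pools can pass 0.05. Values are least precise for small clones: the noise SD was 0.897 in the lowest quintile, against 0.162 from read counting alone.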
